A study of Mus musculus with 12 samples.

Results

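A set of 7 genes of fatty acid uptake and lipid storage, namely Gpihbp1, Lpl, Cd36, Fabp4, Fabp5, Plin2 and Cpt1a, were followed across mouse pancreatic neuroendocrine tumors (PanNETs). They were given as a list of gene symbols, drawn up with earlier results of these data known, and were matched through GENCODE to 7 of the 38924 Ensembl identifiers in the count tables. The tumors came from C57Bl6 mice carrying the RIP1Tag2 transgene, in which the rat insulin promoter drives the SV40 T antigen in pancreatic beta cells, and all 3 groups share this transgene. Poly(A) RNA was sequenced from 12 whole tumors. Of these, 4 came from mice given saline (control), 4 from mice given sunitinib, which blocks the receptors for VEGF and PDGF, and 4 from mice given sunitinib together with the mTOR inhibitor rapamycin (R+S). Treatment started at 15.5 weeks of age and lasted 4 days, and the comparisons ask which genes change when the tumor vasculature is targeted, with or without mTOR inhibition.

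Tissues take up fatty acids from blood lipoproteins in steps. Lipoprotein lipase releases fatty acids at the capillary wall, membrane proteins and cytoplasmic binding proteins carry them into cells, and they are then stored as triglyceride in droplets or passed into mitochondria to be oxidized. Lipid droplets are known to accumulate in many tumor cells that lack oxygen.

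Values are normalized CPM, that is, reads per gene relative to all reads on genes (CPM) after scaling for composition, unless a value is given per kilobase. Counts on genes summed to between 31872342 and 44215054 per tumor. In whole-tumor RNA, fewer cells of a type and less RNA per cell cannot be told apart. Sunitinib tumor 6 stood apart from its insulinoma label: 10 beta-cell markers summed to 1856 CPM there, against 31261 to 76788 CPM in the other sunitinib tumors, 38099 to 61554 CPM in control tumors and 41947 to 67509 CPM in R+S tumors. The sum of 17 markers of acinar cells, the enzyme-producing cells of the exocrine pancreas, was 3.32 to 105 CPM in control tumors, 11767 to 42322 CPM in sunitinib tumors and 3171 to 17910 CPM in R+S tumors. All 17 were called higher in both treated groups, and 1 of them, Ptf1a, was at 0 in every control tumor. The part that acinar RNA takes in the results below was not tested. The label titles carry a prefix that never occurs in more than 1 group, so prefix and treatment cannot be told apart. All control tumors carry the same prefix. Sunitinib tumors 5, 6 and 8 share another, as do R+S tumors 5 and 7. The labels do not say what a prefix stands for, so tumors with the same prefix may not be independent.

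All 7 genes passed the filter on low counts, as did 16645 genes in all. In sunitinib versus control tumors, 3 of the 7 were called at an adjusted p under 0.05 (Gpihbp1 lower, Plin2 and Cpt1a higher), beside 4.48% of all tested genes, with 2.55% of all genes lower and 1.93% higher. The same 3 genes were called in the same directions in R+S versus control tumors, beside 4.16% of all genes, with 2.61% of all genes lower and 1.55% higher. Both comparisons share the 4 control tumors. In R+S versus sunitinib tumors 1 of the 7 was called, Fabp5, which was lower, beside 7.21% of all genes, with 4.58% of all genes lower and 2.63% higher. The treated and control values did not overlap for Gpihbp1, Fabp5, Plin2 and Cpt1a in either comparison with control, as was the case for 10.9% of all genes with sunitinib and 23.5% with R+S. Fabp5 was the sole one of the 7 without overlap between R+S and sunitinib tumors, where 18.6% of all genes had none. The median log2 fold change of the 7 genes was 1.01, 0.13 and -0.31 in the 3 comparisons, taken in this order, and that of all tested genes was 0.03, 0.01 and -0.02.

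**Figure D1:**
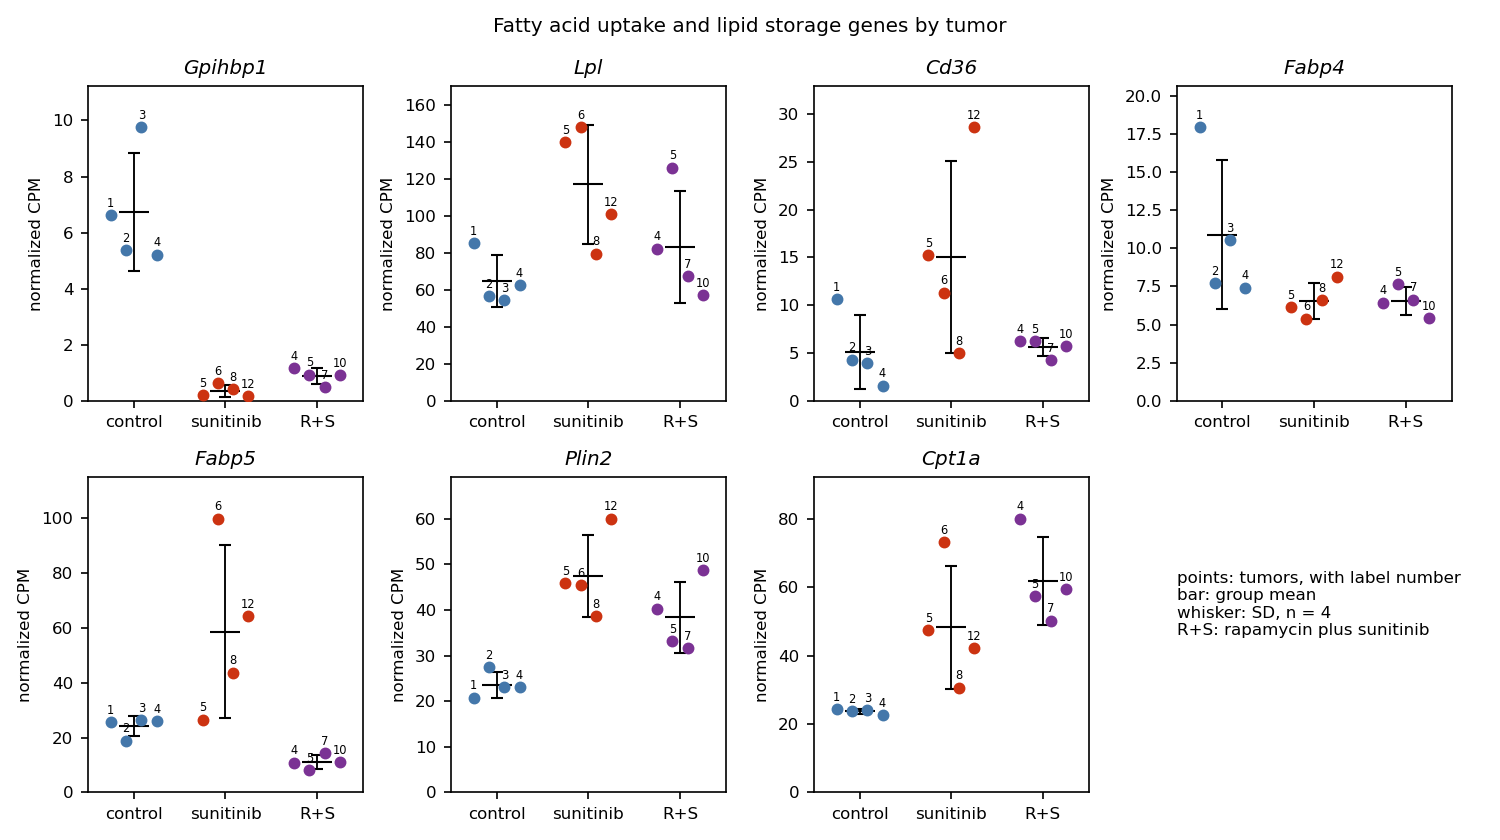
Normalized CPM (linear axis from 0) of the 7 genes in each of the 12 tumors, by group, with the label number of each tumor, the group mean (bar) and the SD (whisker, n = 4). Every treated tumor lay below every control tumor for Gpihbp1 and above every control tumor for Plin2 and Cpt1a, and every R+S tumor lay below all other tumors for Fabp5.

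Gpihbp1 (ENSMUSG00000022579, GRCm38 chr15:75596628-75599481, plus strand) encodes the protein of capillary endothelial cells that binds lipoprotein lipase and holds it at the vessel wall. Its level was 6.63, 5.37, 9.77 and 5.21 CPM in control tumors 1, 2, 3 and 4. It was 0.204, 0.636, 0.422 and 0.160 CPM in sunitinib tumors 5, 6, 8 and 12, and 1.17, 0.934, 0.490 and 0.916 CPM in R+S tumors 4, 5, 7 and 10. Every treated tumor was far below every control tumor, and the treated groups overlapped each other through the higher sunitinib tumor 6 and the lower R+S tumor 7. The mean fell from 6.75 ± 2.11 (SD, n = 4) to 0.356 ± 0.219 with sunitinib, a log2 fold change of -4.23 (SE 0.473, adjusted p = 0.000263), or 18.7-fold lower. With R+S the mean was 0.876 ± 0.282, a log2 fold change of -2.94 from control (SE 0.440, adjusted p = 0.00332), or 7.67-fold lower. R+S and sunitinib tumors differed by a log2 fold change of 1.29 (SE 0.439), which did not pass the test in edgeR (adjusted p = 0.0828) and was called by DESeq2 (adjusted p = 0.0266, and 0.0266 to 0.161 over the 6 alternatives that kept all tumors and gave a value). Without sunitinib tumor 6 this difference was 1.72 and passed the test in edgeR (adjusted p = 0.0349). That was the sole 1 of 12 fits leaving out 1 tumor in which it passed, with values of 1.06 to 1.72 and adjusted p up to 0.1765. The treated values rest on few reads, 5 to 23 counts per sunitinib tumor and 18 to 42 per R+S tumor, against 185 to 385 per control tumor. Both calls against control held with each of the 12 tumors left out in turn.

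Endothelial markers moved with Gpihbp1. The sum of 12 such markers was 588 to 785 CPM in control tumors, 74.3 to 114 CPM in sunitinib tumors and 137 to 175 CPM in R+S tumors, and none of the 12 was at 0 throughout a group. Of the 12, 11 were called lower in each comparison with control, and 7 were called higher in R+S than in sunitinib tumors. The median log2 fold change of the 12 against control was -2.87 for sunitinib and -1.88 for R+S. Single markers ranged from -4.83 to -0.93 with sunitinib and from -3.65 to -0.79 with R+S. Both values of Gpihbp1 against control lay within these ranges. Per 100 CPM of this sum, Gpihbp1 measured 0.817 to 1.24 CPM in control tumors, 0.210 to 0.557 CPM in sunitinib tumors and 0.357 to 0.666 CPM in R+S tumors, so the treated values remained below the control values on that scale. The part of the loss of endothelial RNA in the fall of Gpihbp1 was not tested beyond this ratio. Across the 12 tumors the genes most like Gpihbp1 by Pearson correlation of log2 CPM were Podxl (r = 0.993), Tie1 (0.984) and Kdr (0.984), among 10356 genes compared, and Tie1 and Kdr are among the 12 endothelial markers. The 12 points fall into 3 treatment groups, and within groups the coefficients were 0.948, 0.785 and 0.800.

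Lpl (ENSMUSG00000015568, chr8:68880491-68907448, plus strand) encodes lipoprotein lipase itself, which is made by parenchymal cells and macrophages rather than by the endothelium. Lpl measured 85.3, 56.6, 54.5 and 62.8 CPM in control tumors 1 to 4, in that order. The sunitinib tumors 5, 6, 8 and 12 had 139.9, 148.3, 79.7 and 101.2 CPM, and the R+S tumors 4, 5, 7 and 10 had 82.4, 126.3, 67.7 and 57.4 CPM. Sunitinib tumors 5, 6 and 12 were above all control tumors, whereas tumor 8 lay below control tumor 1, and R+S tumors overlapped both other groups. R+S and sunitinib tumors differed by -0.49 (SE 0.266, adjusted p = 0.23). Neither the log2 fold change of 0.86 with sunitinib (SE 0.268, adjusted p = 0.109) nor that of 0.36 with R+S (SE 0.266, adjusted p = 0.473) passed the test in edgeR, although DESeq2 called the former (adjusted p = 0.0332, and 0.0332 to 0.145 over 7 alternatives to the fit that kept all tumors). The lipase and its anchor thus had mean levels on opposite sides of the control mean in sunitinib tumors, with the anchor alone passing the test in edgeR.

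**Figure D2:**
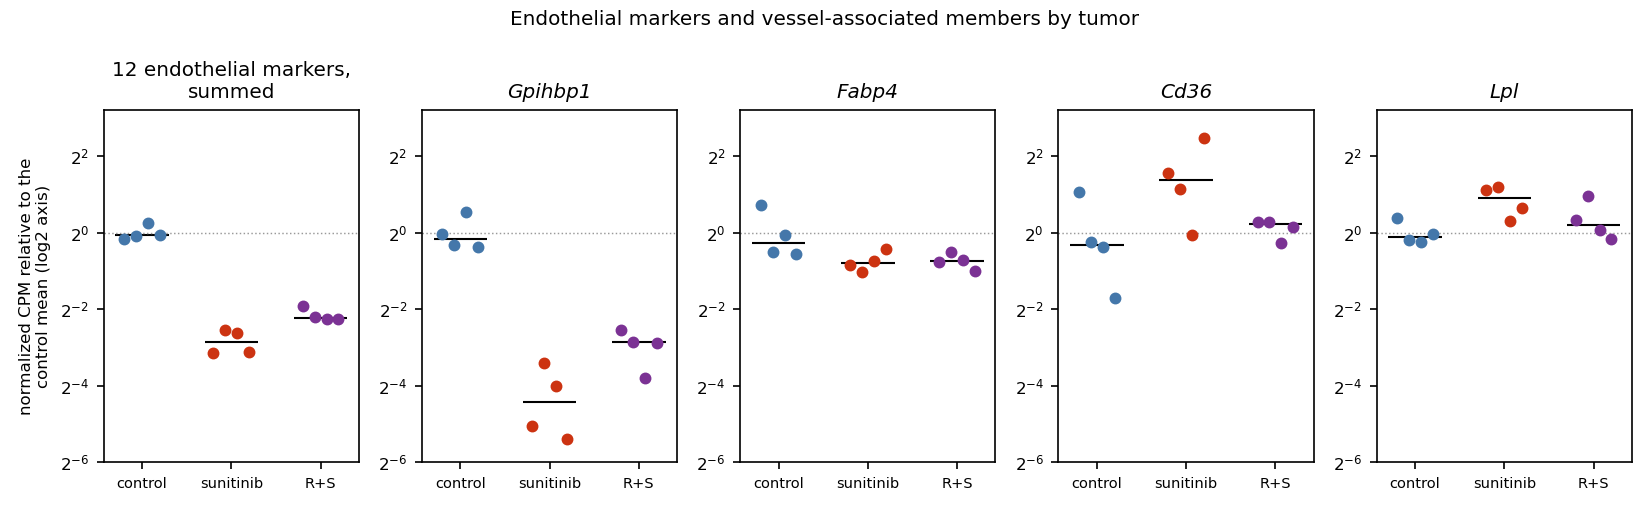
Summed normalized CPM of the 12 endothelial markers and normalized CPM of Gpihbp1, Fabp4, Cd36 and Lpl in each tumor relative to the control mean (log2 axis), with the group median as a line. The marker sum and Gpihbp1 are below every control tumor in all 8 treated tumors, whereas the treated tumors overlap the control tumors for the other 3 genes.

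Cd36 (ENSMUSG00000002944, chr5:17781690-17888801, minus strand) encodes a membrane receptor that takes up long-chain fatty acids and is made by capillary endothelium, macrophages and adipocytes among other cells. Control tumors 1 to 4 had 10.7, 4.31, 3.96 and 1.58 CPM. Sunitinib tumors had 15.3, 11.3, 4.96 and 28.6 CPM, and R+S tumors had 6.24, 6.21, 4.24 and 5.72 CPM, in the tumor order given for Gpihbp1. The spread within the control and sunitinib groups was wide, with the highest tumor 6.75 and 5.77 times the lowest, against 1.47 times in the R+S group, and the sunitinib group overlapped both other groups. The log2 fold changes were 1.55 with sunitinib (SE 0.569, adjusted p = 0.162), 0.13 with R+S (SE 0.559, adjusted p = 0.928) and -1.42 in R+S versus sunitinib (SE 0.567, adjusted p = 0.121). The sunitinib value was 1.03 without sunitinib tumor 12 and 2.19 without control tumor 1, and the value between the treated groups was -1.71 to -0.90 over fits leaving out 1 tumor, the latter without sunitinib tumor 12. None passed the test in edgeR, and the last of the 3 comparisons was called by DESeq2 (adjusted p = 0.0479, and 0.0479 to 0.166 over the 7 alternatives).

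Fabp4 (ENSMUSG00000062515, chr3:10204088-10208576, minus strand) and Fabp5 (ENSMUSG00000027533, chr3:10012548-10016607, plus strand) encode cytoplasmic fatty acid binding proteins. Both lie on chromosome 3, 187480 bases apart. Fabp4 is typical of adipocytes, macrophages and capillary endothelium, and Fabp5 is made by many epithelial and tumor cells. Fabp4 measured 17.9, 7.72, 10.5 and 7.41 CPM in control tumors 1 to 4, 6.12, 5.39, 6.60 and 8.15 CPM in the sunitinib tumors and 6.44, 7.65, 6.64 and 5.42 CPM in the R+S tumors. Control tumors 1 and 3 were above all treated tumors, and the other 2 control tumors lay among them. Its log2 fold change was -0.73 with sunitinib (SE 0.283, adjusted p = 0.179) and -0.74 with R+S (SE 0.283, adjusted p = 0.168), and neither passed the test. R+S and sunitinib tumors differed by -0.01 (SE 0.282, adjusted p = 0.991). Without control tumor 1 the values against control were -0.38 and -0.39. Control tumor 1, which was also the highest control tumor for Cd36 and Lpl, had the highest sum of 8 adipocyte markers, 5.71 CPM, against 0.592 to 3.55 CPM in the other control tumors, 0.660 to 0.944 CPM in sunitinib tumors and 0.619 to 3.64 CPM in R+S tumors. Their part in the Fabp4 values was not tested. Per 100 CPM of the endothelial marker sum, Fabp4 was higher in every treated tumor than in every control tumor. It was at 1.16 to 3.05 CPM in control tumors, 4.72 to 10.7 CPM in sunitinib tumors and 3.68 to 5.36 CPM in R+S tumors. This ratio rises for any gene that fell less than the marker sum did. Cd36 and Lpl were likewise higher on it in every treated tumor. Their lowest treated values were 3.10 and 41.3 CPM, and their highest control values 1.81 and 14.5 CPM.

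Fabp5 was the sole one of the 7 genes to pass the test in edgeR between the treated groups. It measured 25.6, 18.9, 26.3 and 26.0 CPM in control tumors 1 to 4. The sunitinib tumors 5, 6, 8 and 12 had 26.5, 99.8, 43.6 and 64.3 CPM, and the R+S tumors 4, 5, 7 and 10 had 10.8, 8.16, 14.4 and 11.1 CPM. All R+S tumors were below all control tumors and all control tumors below all sunitinib tumors, although sunitinib tumor 5 exceeded the highest control tumor by little. In R+S versus sunitinib tumors the log2 fold change was -2.40 (SE 0.347, adjusted p = 0.0147), or 5.27-fold lower. The differences from control, 1.28 with sunitinib (SE 0.334, adjusted p = 0.0547) and -1.12 with R+S (SE 0.335, adjusted p = 0.0837), had opposite signs and did not pass the test in edgeR, whereas DESeq2 called both (adjusted p = 0.00488 and 0.0164, and 0.00246 to 0.151 and 0.00525 to 0.104 over the 7 alternatives). Without sunitinib tumor 6, the tumor with the highest Fabp5, the R+S versus sunitinib value was -2.01 and still passed (adjusted p = 0.0168), and the R+S versus control value of -1.12 then passed as well (adjusted p = 0.0216). The sunitinib versus control value fell to 0.89 without that tumor (adjusted p = 0.0902). It was 1.53 without sunitinib tumor 5 (adjusted p = 0.00898), the sole 1 of 12 fits leaving out 1 tumor in which it passed. The R+S versus sunitinib call was lost without R+S tumor 4 (adjusted p = 0.0665), tumor 5 (0.0665) or tumor 7 (0.0623), and in a fit of the 8 R+S and sunitinib tumors alone (0.0955, and 5.58e-09 to 0.0955 over the 7 alternatives). The log2 fold change stayed at -2.38, -2.27, -2.54 and -2.40 in these fits, in this order. In the same fits edgeR called 1, 0, 1 and 3 of all tested genes. Of the 50-base words in Fabp5 transcripts, 5.48% also occur in 5 processed pseudogenes, so reads from these words could not be assigned to 1 gene. The share of Fabp5 reads lost in this way was not measured and can differ from the share of words.

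Plin2 (ENSMUSG00000028494, chr4:86648386-86670060, minus strand) encodes perilipin 2, a coat protein of cytoplasmic lipid droplets that is widely used as a marker of lipid storage. Cpt1a (ENSMUSG00000024900, chr19:3322334-3385733, plus strand) encodes the carnitine palmitoyltransferase of the outer mitochondrial membrane, which commits long-chain fatty acids to oxidation. These genes of storage and of oxidation were both called higher in both treated groups, and the promoter windows that RefSeq (GRCm38.p6) gives for them are shown, each from 250 bases before to 50 bases after the start, on the strand of the gene. RefSeq windows matched 3 of the 7 genes (Cd36, Plin2 and Cpt1a). Capitals mark ACGTG, the core of the hypoxia response element, and GCGTG, an alternative core, on either strand. The Plin2 window is chr4:86670010-86670309 (minus strand) and the Cpt1a window is chr19:3323051-3323350 (plus strand), which lies inside the GENCODE gene.
Plin2: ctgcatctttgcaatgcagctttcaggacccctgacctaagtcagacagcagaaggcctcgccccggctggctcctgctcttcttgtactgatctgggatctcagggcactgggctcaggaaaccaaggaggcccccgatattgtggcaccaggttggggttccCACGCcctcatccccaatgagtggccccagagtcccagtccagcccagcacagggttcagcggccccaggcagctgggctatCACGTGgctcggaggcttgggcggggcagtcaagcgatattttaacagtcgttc
Cpt1a: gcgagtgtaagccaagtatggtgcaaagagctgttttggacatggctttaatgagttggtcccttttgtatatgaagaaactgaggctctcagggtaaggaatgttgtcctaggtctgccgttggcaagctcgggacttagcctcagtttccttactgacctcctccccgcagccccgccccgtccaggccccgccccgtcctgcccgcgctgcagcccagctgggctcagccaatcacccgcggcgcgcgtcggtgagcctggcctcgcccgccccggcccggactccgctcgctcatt
In the Plin2 window ACGTG occurs on both strands in 1 palindrome, at bases 247 to 252, so the matches overlap each other around the start, and GCGTG occurs on the opposite strand at bases 165 to 169. The windows of Cpt1a and Cd36 hold none of these letters, and the consensus direct repeat that PPAR and RXR bind was found in none of the 3 windows. Of 32851 RefSeq windows of the same length, 19.6% hold ACGTG, 32.4% hold GCGTG and 0.0396% hold the direct repeat on either strand. These matches describe letters and not binding.

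Plin2 measured 20.8, 27.5, 23.1 and 23.1 CPM in control tumors 1 to 4. It measured 45.9, 45.4, 38.7 and 60.1 CPM in the sunitinib tumors and 40.3, 33.1, 31.6 and 48.7 CPM in the R+S tumors. Every treated tumor was above every control tumor, and the treated groups overlapped. The mean rose from 23.6 ± 2.81 (SD, n = 4) to 47.5 ± 9.01 with sunitinib, a log2 fold change of 1.01 (SE 0.174, adjusted p = 0.00518), or 2.01-fold. With R+S it was 38.4 ± 7.83, a log2 fold change of 0.70 (SE 0.173, adjusted p = 0.0442), or 1.63-fold. The sunitinib call held with each tumor left out, whereas the R+S call held in 3 of 12 such fits, those without sunitinib tumor 6, 8 or 12, with adjusted p between 0.0234 and 0.133 over the 12, and in 4 of the 7 alternatives, with adjusted p between 0.00548 and 0.0614. R+S and sunitinib tumors differed by -0.31 (SE 0.172, adjusted p = 0.246).

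Cpt1a was almost constant in control tumors, at 24.4, 23.7, 24.0 and 22.5 CPM. It measured 47.4, 73.1, 30.6 and 42.3 CPM in the sunitinib tumors and 80.1, 57.3, 50.2 and 59.5 CPM in the R+S tumors. All treated tumors exceeded all control tumors, and the treated groups overlapped through the high sunitinib tumor 6. The mean rose from 23.7 ± 0.817 (SD, n = 4) to 48.3 ± 18.0 with sunitinib, a log2 fold change of 1.03 (SE 0.231, adjusted p = 0.0259), or 2.04-fold. With R+S it reached 61.8 ± 12.8, a log2 fold change of 1.38 (SE 0.233, adjusted p = 0.00666), or 2.61-fold. The R+S call held with each tumor left out. The sunitinib call was lost without control tumor 1, 2, 3 or 4 (adjusted p between 0.0597 and 0.0835) and in a fit of those 8 tumors alone (0.0792, and 0.000851 to 0.0792 over the 7 alternatives), and without sunitinib tumor 6 the value was 0.76 (adjusted p = 0.0269). R+S and sunitinib tumors differed by 0.35 (SE 0.228, adjusted p = 0.311), and by 0.63 without sunitinib tumor 6 (adjusted p = 0.0476). The latter was the sole call in 12 fits leaving out 1 tumor, with values of 0.19 to 0.63 and adjusted p up to 0.592. Of the 7 alternatives, 0 called this difference.

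**Figure D3:**
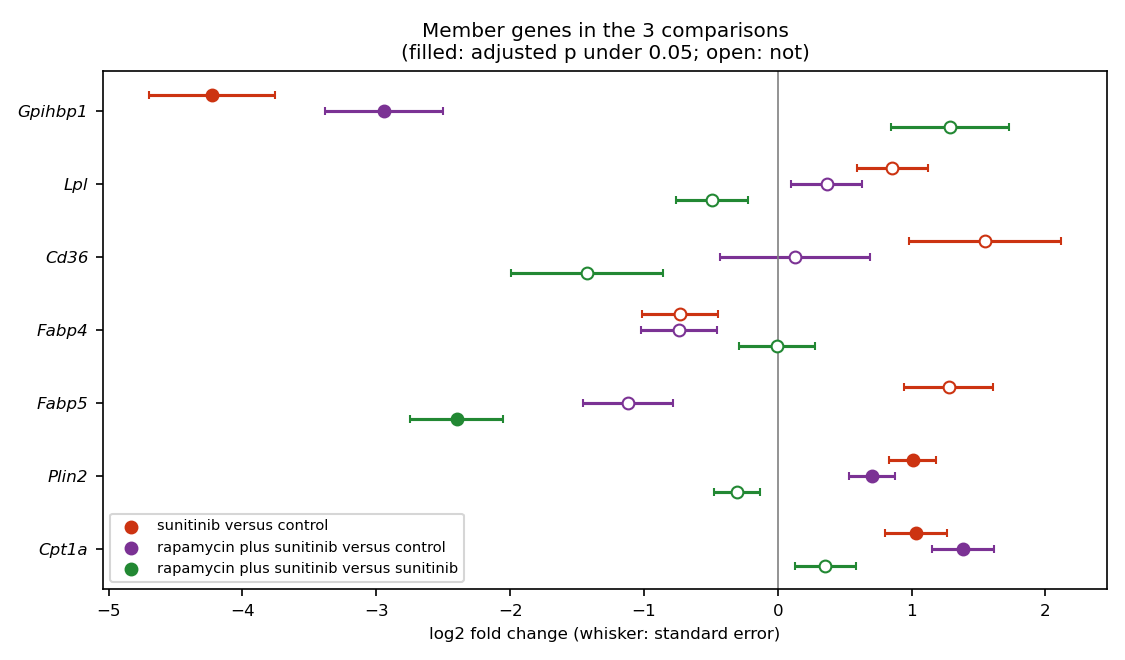
Log2 fold change of each of the 7 genes in the 3 comparisons, with the standard error as whisker and filled points at an adjusted p under 0.05 (edgeR, adjusted over all tested genes). Gpihbp1 has the lowest values against control, Plin2 and Cpt1a lie above 0 in both comparisons with control, and Fabp5 has the filled point of R+S versus sunitinib.

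Macrophages express several of these genes, including Lpl, Cd36, Fabp4 and Plin2. The sum of 10 macrophage markers was 625 to 891 CPM in control tumors, 289 to 867 CPM in sunitinib tumors and 412 to 617 CPM in R+S tumors, with 0 of 10 called higher and 2 and 1 called lower against control. This sum was below the lowest control tumor in sunitinib tumors 5 and 6 and in all R+S tumors, and within the control range in sunitinib tumors 8 (818 CPM) and 12 (867 CPM). The tumor with the highest Plin2 in each treated group also had the highest macrophage sum of its group. These were sunitinib tumor 12 (sum 867 CPM) and R+S tumor 10 (sum 617 CPM). By contrast, sunitinib tumor 8 had the lowest Plin2 of its group (38.7 CPM) beside a macrophage sum of 818 CPM. Of the control tumors, tumor 2 had the highest Plin2 (27.5 CPM) and tumor 3 the highest macrophage sum (891 CPM). The part of macrophage RNA in the values of these genes was not tested. The sum of 7 fibroblast markers was 354 to 963 CPM, 704 to 989 CPM and 431 to 537 CPM in the same order of groups.

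Levels of different genes were compared per kilobase of merged exon length. Fabp5 (6.78 ± 0.997), Plin2 (6.73 ± 0.800) and Lpl (6.18 ± 1.35 CPM per kilobase, mean ± SD, n = 4) were the highest of the 7 in control tumors and differed by less than their spread, followed by Cpt1a (3.10), Gpihbp1 (2.64), Fabp4 (2.43) and Cd36 (1.43). In sunitinib tumors the order was Fabp5 (16.4), Plin2 (13.5), Lpl (11.2), Cpt1a (6.32), Cd36 (4.19), Fabp4 (1.46) and Gpihbp1 (0.139), with wide spread for Fabp5 (SD 8.84). In R+S tumors it was Plin2 (10.9), Cpt1a (8.08), Lpl (7.96), Fabp5 (3.12), Cd36 (1.56), Fabp4 (1.46) and Gpihbp1 (0.343), where Cpt1a and Lpl differed by less than their SDs of 1.68 and 2.90. In control tumors Gpihbp1 and Fabp4 differed by less than their SDs of 0.827 and 1.09, and Gpihbp1 had the lowest mean of the 7 in both treated groups. Per kilobase, the level of Fabp5 was 1.79 to 4.41 times that of Fabp4 in control tumors, 5.45 to 23.3 times in sunitinib tumors and 1.34 to 2.72 times in R+S tumors. The merged exons of Fabp4 cover its whole gene, 4489 bases, so that its level per kilobase is a low estimate. Those of Fabp5 (3567 bases) and Gpihbp1 (2554 bases) cover most of their genes, so their levels may be low estimates too. The orders and ratios given here therefore hold for this measure of length and may differ with the lengths of spliced transcripts.

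Genes of the surrounding pathway were read from 6 lists, which include the 7 genes. Among genes of intravascular lipolysis, 11 of 16 were tested, 1 was called higher and 1 lower with sunitinib, and the same counts held with R+S. The gene called lower was Gpihbp1 and the one called higher was Angptl4, which encodes a secreted inhibitor of lipoprotein lipase. Angptl4 was 0.789 to 1.52 CPM in control tumors, 2.88 to 9.63 CPM in sunitinib tumors and 3.37 to 7.30 CPM in R+S tumors, without overlap with control. Its log2 fold change was 2.68 with sunitinib (SE 0.435, adjusted p = 0.00352) and 2.14 with R+S (SE 0.428, adjusted p = 0.0173). In both treated groups the anchor of the lipase was therefore called lower and an inhibitor of the lipase called higher, while Lpl itself was not called in edgeR.

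In the list of fatty acid transport and activation, 13 of 20 genes were tested. Slc27a1, which encodes a fatty acid transport protein, was the sole gene called against control, from 24.2 to 28.0 CPM in control tumors to 38.9 to 59.7 CPM with sunitinib (log2 fold change 0.92, SE 0.147, adjusted p = 0.00308) and 38.0 to 47.7 CPM with R+S (0.72, SE 0.146, adjusted p = 0.0191). In R+S versus sunitinib tumors 2 genes of this list were called lower, Fabp5 and Dbi. Dbi encodes the acyl-CoA binding protein and changed by -0.95 (SE 0.199, adjusted p = 0.0277), from 29.7 to 55.0 CPM in sunitinib tumors to 18.5 to 23.9 CPM in R+S tumors. All 13 tested genes of the list had a negative log2 fold change in this comparison, with a median of -0.27 beside -0.02 for all tested genes. Some of these values were near 0, as for Fabp4 (-0.01, SE 0.282) and Acsl4 (-0.02, SE 0.278), and Fabp4 was positive in some other fits.

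Of 28 genes of triglyceride synthesis and lipid droplets, 22 were tested. With sunitinib 2 were called higher, Plin2 and Agpat5, an acyltransferase of phospholipid and triglyceride synthesis (0.47, SE 0.118, adjusted p = 0.0446), and with R+S Plin2 alone was called. The median of the list was 0.30 with sunitinib and 0.19 with R+S. Of 7 genes of lipolysis of stored fat, all tested, Mgll, the monoglyceride lipase, was called lower with sunitinib (-1.06, SE 0.271, adjusted p = 0.0493). G0s2, which encodes an inhibitor of adipose triglyceride lipase, was called lower in R+S than in sunitinib tumors (-2.01, SE 0.429, adjusted p = 0.0291), at 0.544 to 0.909 CPM against 1.80 to 3.87 CPM. Control tumors had 0.648 to 2.33 CPM of G0s2.

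Among 23 genes of mitochondrial fatty acid oxidation, all tested, Cpt1a was the sole gene called, in both comparisons with control. The median of the list was 0.33 with sunitinib and 0.08 with R+S. The second carnitine palmitoyltransferase, Cpt2, was at 60.6, 57.3 and 57.4 CPM (group means, in the order control, sunitinib and R+S) and was not called. Of 10 genes of PPAR and its partners, 9 were tested, and Rxra, which encodes a partner receptor of PPARs, was called higher in R+S tumors, by 0.59 against control (SE 0.148, adjusted p = 0.0464) and by 0.61 against sunitinib (SE 0.148, adjusted p = 0.0355). The calls of Angptl4 and Slc27a1 with sunitinib held with each of the 12 tumors left out in turn. With R+S, Angptl4 lost its call without control tumor 2 or 4 (adjusted p = 0.0588 and 0.0589), and Slc27a1 without control tumor 2 or 4 or R+S tumor 5 (adjusted p between 0.0572 and 0.0711). Dbi and G0s2 lost theirs without any 1 of the 4 R+S tumors (adjusted p between 0.0597 and 0.0971). Without R+S tumor 4, 5, 7 or 10, edgeR called 1, 0, 1 and 314 of all tested genes between the treated groups, in that order. Over the 12 fits leaving out 1 tumor, Dbi stayed between -1.08 and -0.74 and G0s2 between -2.18 and -1.85. The remaining calls were near the threshold. Agpat5 kept its call without sunitinib tumor 5 or 6, Mgll without sunitinib tumor 6, and Rxra against control without control tumor 1 or sunitinib tumor 6 or 12, and against sunitinib without control tumor 1 or 4 or sunitinib tumor 5, 6 or 12, and all lost it without any other tumor.

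**Figure D4:**
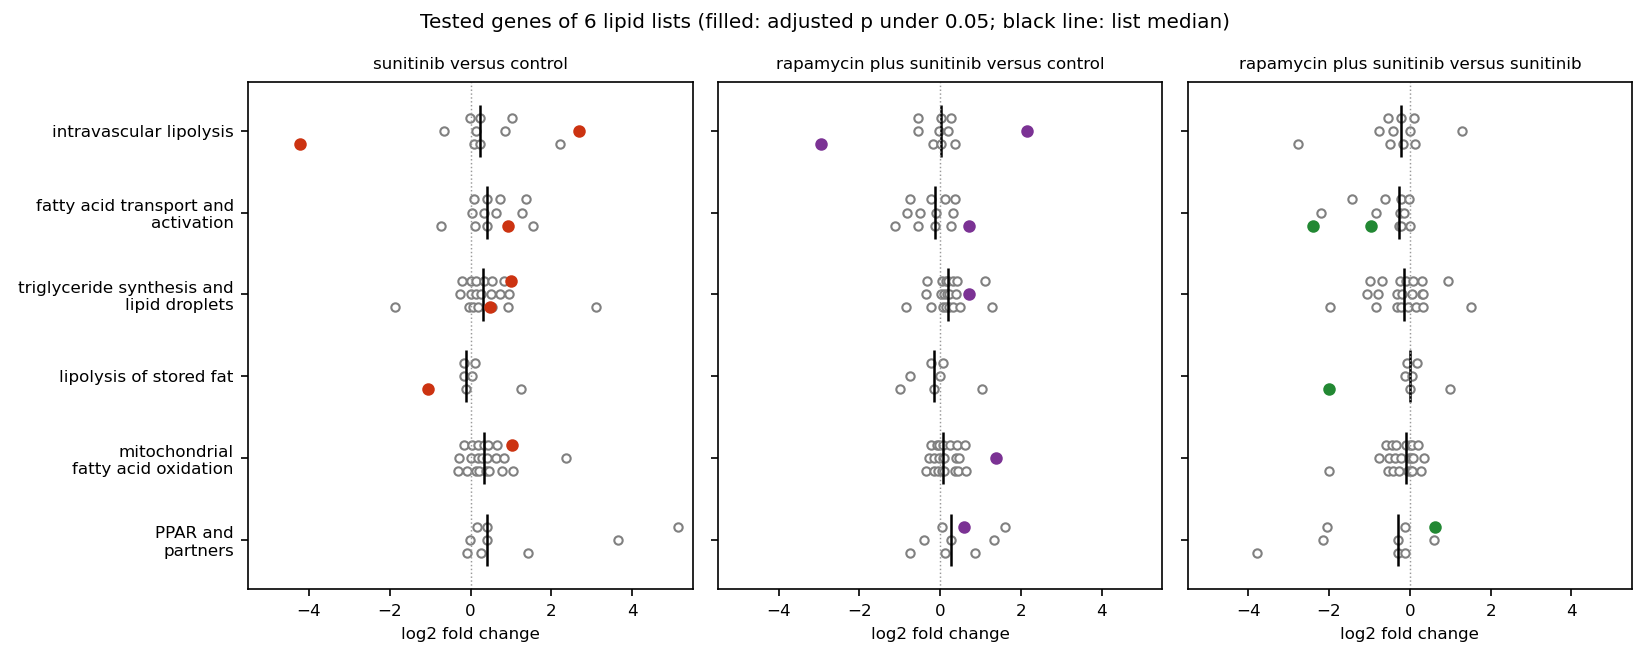
Log2 fold change of every tested gene of the 6 lists in the 3 comparisons, with filled points at an adjusted p under 0.05 and the list median as a black line. Most genes lie near 0 and are open, and the filled points of the first 2 panels include Gpihbp1 and Angptl4 at the extremes of the intravascular list.

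The genes most like each of the other 6 across the 12 tumors, by the same measure as for Gpihbp1, were Rcn3 for Lpl (r = 0.930), Osgep for Cd36 (0.940), Ifngr1 for Fabp4 (0.874), Ptrh2 for Fabp5 (0.975), Mmp12 for Plin2 (0.908) and Ddx55 for Cpt1a (0.942). Within groups the coefficients were 0.936, 0.913, 0.786, 0.910, 0.452 and 0.740 in that order. Among the 7 genes themselves, Plin2 and Gpihbp1 were the most opposed pair (r = -0.88, and -0.19 within groups), and Plin2 and Cpt1a the most alike (0.71, and 0.26 within groups).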

How the data were processed

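RNA of 12 RIP1Tag2 tumors was analysed, grouped by the treatment in the sample labels (4 control, 4 sunitinib, 4 R+S). The authors deposited raw counts of reads per gene as whole numbers, 1 table per tumor, from strand-specific poly(A) libraries. The submitters' processing notes name cutadapt 1.2.1, TopHat2 2.0.9, HTSeq 0.5.4p3 and GRCm38; the annotation release is not given in the sources used here. The 5 closing summary lines of each table were left out. Of 38924 identifiers, 37607 were paired with a symbol through GENCODE M21. A read with more than 1 alignment adds to no gene, and PCR copies were not marked.

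After filterByExpr (min.count 10, min.total.count 15), edgeR 4.0.16 with limma 3.58.1 in R 4.3.3 was used to compute TMM factors and 1 robust quasi-likelihood fit of the 3 groups. Benjamini-Hochberg adjustment ran over all 16645 tested genes in each comparison, with a threshold of 0.05, which is what called means. The procedure was tested on simulated data. Log2 CPM for correlations used a prior count of 2 and genes with an average of at least 3. Alternatives were DESeq2 1.42.0, library-size and upper-quartile scaling, other filters, only the 8 tumors compared, tumors of 1 label prefix summed within treated groups, and each tumor left out.

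The labels do not say whether tumors of a group came from separate mice, so p-values measure only the spread between these tumors. The 7 genes, the pathway lists and the markers were chosen with earlier results of these data known. Named genes are the 7, list genes called in any comparison (up to 4 per list), the genes most correlated with each of the 7 and single markers; Cpt2 was added beside Cpt1a, and Ppargc1a, Pdk4, Cidea and Acacb for their values in 1 tumor, after values were seen.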

Additional observations from a re-analysis of the deposited data

Results flagged for a closer look

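In each group of 4 tumors, a tumor was picked out when its gap to the nearest other tumor exceeded, as a share of the range of the group, Dixon's critical value at the 95% level. This was checked in 72 groups of values, and chance alone picks out about 1 in 20. Fabp5 in control tumor 2 was 18.9 CPM, below the 25.6 to 26.3 CPM of the other control tumors. Agpat5 in control tumor 1 was 39.9 CPM, below the other control tumors at 54.2 to 56.9 CPM.

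Sunitinib tumor 6, the tumor with low beta-cell markers, was far above the other sunitinib tumors in 4 lipid genes. Ppargc1a, a coactivator of PPARs and of mitochondrial genes, was 61.5 CPM against 0.128 to 1.50 CPM. Pdk4, which spares pyruvate when fatty acids are oxidized, was 15.1 CPM against 0.545 to 2.02 CPM. Cidea, a lipid droplet protein, was 9.04 CPM against 0.153 to 0.321 CPM, and Acacb, an acetyl-CoA carboxylase, was 38.2 CPM against 3.21 to 5.67 CPM. None of these 4 genes was called in sunitinib versus control tumors, with log2 fold changes of 5.13, 3.64, 3.10 and 2.37, and 0.94, 1.72, -0.38 and 0.80 without this tumor.

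Ppargc1a in R+S tumor 5 was 2.20 CPM, above 0.707 to 0.915 CPM in the other R+S tumors. The endothelial marker sum of R+S tumor 4 was 174.9 CPM, above 137 to 143 CPM in the others, and this was the R+S tumor with the highest Gpihbp1. The acinar marker sum of control tumor 1 was 105.4 CPM, above 3.32 to 7.67 CPM in the other control tumors.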

How the results depend on the processing

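Counts of calls moved with the method more than the fold changes did. DESeq2 called 1477 genes in sunitinib versus control (745 in edgeR), 1688 in R+S versus control (693) and 3045 in R+S versus sunitinib (1200), and 5 and 3 of the 7 genes in the first and last. With at least 10 counts in every tumor, 408 genes were called with sunitinib, and 1 of the 7 with R+S, where Gpihbp1 has no value and Plin2 lost its call (adjusted p = 0.0514). Without a filter 501 genes were called in R+S versus sunitinib. Fits of only the 8 tumors compared called 380, 2557 and 3 genes, and 0 of the 7 in R+S versus sunitinib, where 3 of them had an unadjusted p under 0.05 and DESeq2 on the same tumors called 2. With single tumors left out, edgeR called 440 to 902 genes with sunitinib, 292 to 1627 with R+S and 0 to 2861 in R+S versus sunitinib, and 2 to 4, 2 to 4 and 0 to 3 of the 7 genes. The 0 came without R+S tumor 5, where 3870 genes had an unadjusted p under 0.05 and DESeq2 called 1533, and 2861 came without sunitinib tumor 5. R+S versus control gave 292 without control tumor 3 and 1627 without sunitinib tumor 6, and sunitinib versus control 440 without control tumor 3. The cause of these shifts was not tested.

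Signs changed where values were near 0. Cd36 in R+S versus control was 0.13, and -0.17 to 0.77 over fits leaving out 1 tumor, negative without control tumor 4. Fabp4 in R+S versus sunitinib was 0.0084 without a filter, 0.12 without sunitinib tumor 12, and 0.0044 and 0.076 without R+S tumor 4 or 10, with a range of -0.088 to 0.12 over single tumors left out. Cidea with sunitinib was -0.38 without sunitinib tumor 6, and up to 4.25 with other tumors left out. Called fold changes of the 7 genes kept their sign in every fit that gave a value. With treated tumors of 1 label prefix summed, Fabp5 was called in edgeR with sunitinib (adjusted p = 0.00246) and with R+S (0.00525), whereas Plin2 lost its call with R+S (0.0521). The sunitinib group of that fit held the sum of tumors 5, 6 and 8 beside tumor 12 alone. The control tumors, which all carry 1 prefix, were kept separate in that fit, so it does not address their shared prefix. No paired analysis was possible because the labels do not pair tumors across groups. At 5 to 23 counts per sunitinib tumor, the size of the fall of Gpihbp1 is imprecise, with -4.65 to -4.00 over the fits leaving out 1 tumor.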
